A study of Mus musculus with 12 samples.

Results

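Regions of chromatin that were more accessible without Phf6 in 2 neighbouring blood cell populations, LT-HSC and MPP, are described here. A region was a member when its log2 ratio of mean CPM in KO over WT was at least 0.5 in both populations, and when the lowest KO library lay above the highest WT library in each population. CPM, the usual unit of counts scaled to the library total, is used throughout. Regions also had to lie on an autosome and to average at least 1 CPM over the 12 libraries. Of 188262 regions in all, 183317 were autosomal and 125457 of these reached the level, and 563 met every criterion, a share of 0.449% of the eligible regions. The KO over WT values thus chose the members, so those values are a description, and no test is attached to them. ATAC-seq, an assay that reads out where the transposase Tn5 can cut and tag DNA, gave 3 libraries per group. WT mice were Phf6f/Y Rosa26+/+, that is, they carried the floxed gene without a recombinase. KO mice were Phf6-/Y Rosa26+/Cre-ERT2, in which a Cre recombinase that tamoxifen activates, placed at Rosa26, had deleted Phf6. All mice were male and were sampled 8 weeks after tamoxifen, and their age was not given in the sources used here. Each KO library carries Cre-ERT2 and no WT library does, so an effect of Cre and an effect of Phf6 loss cannot be told apart. The labels describe nuclei of 20000 sorted LT-HSC from individual mice, and they give no separate account of how MPP were prepared.

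Long-term haematopoietic stem cells (LT-HSC) sustain blood formation for life, and multipotent progenitors (MPP) are their early descendants with little self-renewal. Phf6 lies on the X chromosome, encodes a zinc finger protein of chromatin and is recurrently mutated in leukaemias. Many of the strongest members lay at genes of the heat shock response. In that response the transcription factor Hsf1 binds arrays of short GAA units, read alternately on both strands, and induces chaperones that hold and refold damaged proteins. A second set lay at immediate early genes, which growth factors and stress switch on within minutes and which encode transcription factors such as the AP-1 subunits Fos, Fosb and Jun.

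Start sites of the chaperone genes with a member and a GAANNTTC or TTCNNGAA match are shown first. The members at these genes lay mostly away from the start sites. Genes and windows were chosen for holding a match, so a match in each printed sequence is no result. Dnajb1, with larger ratios than several genes shown, and Hspa4l had members but neither motif in their windows. At Dnajb4 the window printed is that of an inner start. The 150 bases before the start site are printed 5′ to 3′ on the gene's strand, from RefSeq promoter windows of GRCm38.p6, with GAANNTTC or TTCNNGAA in capitals. At Hspd1 the capitals are a run of overlapping matches, which includes TTCNNGAA followed by NNTTC. They lie at chr17:34972157-34972306 on the minus strand for Hspa1a, chr17:34959239-34959388 on the minus strand for Hspa1b, chr5:149636337-149636486 on the minus strand for Hsph1, chr3:152193846-152193995 on the minus strand for Dnajb4, chr1:55087933-55088082 on the minus strand for Hspd1 and chr4:40722318-40722467 on the plus strand for Dnaja1.
Hspa1a: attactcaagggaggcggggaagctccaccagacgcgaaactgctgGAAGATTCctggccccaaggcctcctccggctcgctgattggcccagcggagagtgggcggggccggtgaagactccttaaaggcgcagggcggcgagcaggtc
Hspa1b: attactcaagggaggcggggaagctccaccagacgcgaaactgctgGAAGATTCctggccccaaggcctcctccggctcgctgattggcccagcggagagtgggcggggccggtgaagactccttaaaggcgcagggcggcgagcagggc
Hsph1: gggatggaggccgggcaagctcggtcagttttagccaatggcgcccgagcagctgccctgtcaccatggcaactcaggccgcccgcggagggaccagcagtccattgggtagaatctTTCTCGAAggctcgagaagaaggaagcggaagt
Dnajb4: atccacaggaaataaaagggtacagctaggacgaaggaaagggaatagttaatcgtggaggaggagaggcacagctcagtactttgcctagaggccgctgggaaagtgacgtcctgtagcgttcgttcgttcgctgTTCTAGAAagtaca
Hspd1: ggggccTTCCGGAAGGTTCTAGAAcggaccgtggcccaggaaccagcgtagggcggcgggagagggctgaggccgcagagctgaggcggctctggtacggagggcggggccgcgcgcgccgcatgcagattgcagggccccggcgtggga
Dnaja1: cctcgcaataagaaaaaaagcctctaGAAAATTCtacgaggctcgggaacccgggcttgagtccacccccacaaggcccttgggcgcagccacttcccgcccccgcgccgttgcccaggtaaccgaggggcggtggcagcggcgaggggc
The Hspa1a and Hspa1b windows matched at 247 of 250 bases before the start, so reads could be split between these near-identical copies in a way the counts do not show, and their separate values are uncertain. Of 466 genes with a member, 376 had a promoter window. Both motifs are their own reverse complement, so 1 search covers both strands. GAANNTTC stood in 250 bases before the start in 4 of 8 chaperone genes with a member, in 8.24% of all genes with a member and in 7.25% of all 17492 protein-coding genes with a window. TTCNNGAA, searched after the first results were seen, stood in 3 of the 8 chaperone genes, in 7.18% of genes with a member and in 7.45% of all genes. The longer form with NNTTC after TTCNNGAA, also added later and searched on both strands, stood at Hspd1 alone among the 8, and in 0.452% of all genes. The AP-1 site TGANTCA stood in none of the 8 chaperone windows and none of 7 immediate early windows, against 5.32% of genes with a member and 7.19% of all genes. The CRE site TGACGTCA, added later, stood at Dusp1 among the immediate early genes, in 3.72% of genes with a member and in 2.20% of all genes. The ETS core GGAA, which can overlap the heat shock motifs, stood in 94.4% of genes with a member and 94.1% of all genes. The GATA site AGATAA stood in 7.98% and 10.3%, and the RUNX site TGTGGT in 11.4% and 14.3%. Matches are of letters only, and the members themselves mostly lie outside these windows.

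Library totals ran from 22665988 to 48547234 counts. The labelled populations were checked through the summed CPM of regions assigned to marker genes. Regions at Mecom, a stem cell transcription factor gene, summed to 336 to 374 CPM in the 6 LT-HSC libraries and 183 to 207 CPM in the 6 MPP libraries. Regions at Flt3, a receptor gene of progenitors, summed to 105 to 113 CPM in LT-HSC and 179 to 207 CPM in MPP. Regions of the T cell list summed to 629 to 659 CPM in WT MPP and 571 to 597 CPM in KO MPP, and those of the myeloid list to 915 to 922 CPM in WT LT-HSC and 872 to 901 CPM in KO LT-HSC. Those of the B cell list summed to 289 to 297 CPM in WT MPP and 274 to 282 CPM in KO MPP. Regions of the stem cell identity list, which held 6 members, summed to 4369 to 4542 CPM in WT and 4576 to 4649 CPM in KO LT-HSC, and to 3451 to 3610 CPM in WT and 3709 to 3737 CPM in KO MPP. Regions of the MPP and lymphoid list were higher in KO LT-HSC (1079 to 1091 CPM against 1054 to 1071 CPM in WT), and those of the megakaryocyte and erythroid list in KO MPP (1019.7 to 1027 CPM against 958 to 1009 CPM in WT). The part of these shifts in the results was not tested. The strongest Phf6 region, which lies over the gene, held 27.3 ± 1.12 CPM on average in WT against 27.1 ± 1.07 CPM in KO LT-HSC (SD, n = 3). In MPP it held 31.5 ± 0.779 CPM on average in WT against 28.1 ± 0.779 CPM in KO (SD, n = 3), with every KO library below every WT library. A region over the gene does not check the deletion. Deviations from group means of same-numbered LT-HSC and MPP libraries correlated weakly over regions averaging at least 1 CPM (r from 0.111 to 0.219). Gains in the 2 populations are therefore not independent observations.

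Most members were modest and a few were large. The log2 ratio ran from 0.50 to 2.90 in LT-HSC, with a median of 0.63, and from 0.50 to 2.65 in MPP, with a median of 0.66. The smaller of the 2 ratios was under 0.6 in 316 of 563 members. Only 26 members had a ratio of at least 1 in both populations, and 17 of these lay at chaperone genes and 2 at immediate early genes. The ratio was larger in MPP for 316 members and larger in LT-HSC for 247. Against 563 gained regions, 1316 eligible regions (1.05%) met the mirrored criteria for loss. Both counts rest on scaling by column totals, and losses were not recounted with other scalings. The median log2 ratio over eligible regions in LT-HSC was -0.02 with column totals and 0.04 with TMM. The balance of gains and losses is therefore not settled here. Taken 1 population at a time, 2254 regions (1.8%) met the gain criteria in LT-HSC and 4038 (3.22%) in MPP, so the members were 25% of the LT-HSC gains and 13.9% of the MPP gains. A further 13 of 2687 regions on the X chromosome met the same values and were left out by the rule.

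**Figure D1:**
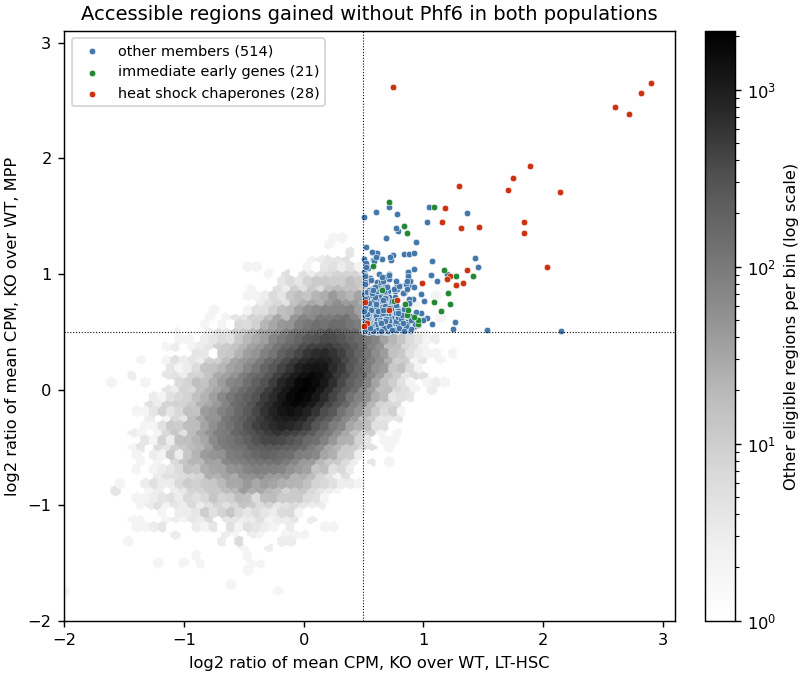
Log2 ratio of mean CPM in KO over WT for each eligible region, in LT-HSC (x axis) and MPP (y axis); grey hexagons count regions that are not members on a log scale, dotted lines mark 0.5, and points are the 563 members. Most members sit close to the dotted corner, and the points at the upper right are chaperone regions in red, with ratios up to 2.90 and 2.65.

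The threshold cuts through a continuous range of ratios. Just inside it, the regions at Prkar2b (0.500244 in LT-HSC), Itsn2 (0.5003 in MPP) and Niban1 (0.500381 in MPP) were members. Just outside it, those at Lmo7 (0.499803 in MPP), Cxadr (0.499968 in LT-HSC) and St7 (0.499992 in LT-HSC) were not. In all, 6304 eligible regions had KO libraries above WT libraries in both populations without overlap, at any ratio, and 830 had both ratios at 0.5 or more with overlap allowed.

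Chaperone genes held the largest gains. Of 108 eligible regions assigned to 23 chaperone genes, 28 (25.9%) were members, beside 0.449% of all eligible regions. None met the loss criteria, which 1.05% of all eligible regions met. The members lay at 10 of 24 listed genes, which were Dnaja1, Dnajb1, Dnajb4, Hsp90aa1, Hspa1a, Hspa1b, Hspa4l, Hspa8, Hspd1 and Hsph1. Over all 108 regions the median log2 ratio was 0.17 in LT-HSC and 0.21 in MPP, beside -0.02 in each population over all eligible regions. The list was drawn up with these gains already known, so its count is not independent evidence of a direction.

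Hsph1 encodes a chaperone of the HSP110 family that recharges HSP70 proteins. Its widest member, in the gene body at chr5:149628445-149629619, held 0.734, 0.258 and 1.98 CPM in the WT and 5.78, 5.98 and 7.81 CPM in the KO libraries of LT-HSC. Its values in MPP were 2.23, 0.70 and 2.5 CPM for WT and 10.4, 9.47 and 8.44 CPM for KO. All 6 KO values lay above all 6 WT values, and WT number 2 was the lowest library in both populations. The region thus held 0.99 ± 0.888 CPM on average in WT against 6.53 ± 1.12 CPM in KO LT-HSC (SD, n = 3), a ratio of 6.59-fold that became 13.1-fold without WT LT-HSC number 3, and the log2 ratios were 2.72 in LT-HSC and 2.38 in MPP. A shorter neighbour at chr5:149626966-149627367 had the largest ratios of any member, 2.9 and 2.65. By contrast, the strong region over the start site, whose upstream bases are printed above, held 80.9, 81.7 and 86.3 CPM in the WT and 94.8, 91.5 and 98.3 CPM in the KO libraries of LT-HSC, with log2 ratios of 0.19 and 0.19. The 4 members at Hsph1 lay 7.47 to 14.2 kb past the start, measured here and below from the centre of each region.

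Dnajb4, which encodes an HSP40 co-chaperone that delivers clients to HSP70, had 5 members, the most of any gene. The one nearest the end of the gene, at chr3:152183191-152183994, held 0.646, 0.344 and 1.05 CPM in the WT and 3.46, 4.62 and 4.32 CPM in the KO libraries of LT-HSC. In the MPP libraries the region gave 0.425, 0.227 and 0.451 CPM for WT and 2.88, 2.0 and 1.14 CPM for KO. Every KO library was above every WT library, and KO MPP ranged widely. The log2 ratios of the 5 members along the gene, from 19.1 kb past the start to 26.8 kb, were 0.51, 1.16, 1.7, 2.82 and 2.6 in LT-HSC. They were 0.75, 1.45, 1.73, 2.57 and 2.45 in MPP. The region over the start site whose upstream bases are printed above, at chr3:152193614-152194077 and 16.6 kb into the gene, had log2 ratios of 0.16 and 0.22, and the region at the outermost start had 0.03 and 0.10.

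Dnajb1 encodes the main stress-induced HSP40 protein. Both of its members lay past the end of the gene, 1.35 and 2.56 kb away. The nearer one, at chr8:83613700-83614309, held 3.03, 2.35 and 8.0 CPM in the WT and 13.3, 15.3 and 16.5 CPM in the KO libraries of LT-HSC. The MPP libraries gave 4.53, 2.06 and 3.81 CPM for WT and 13.9, 12.3 and 10.8 CPM for KO. WT LT-HSC number 3 stood above the other two WT libraries, and the KO libraries lay close together. Its log2 ratios were 1.75 and 1.83, and those of the farther one were 1.89 and 1.93, against 0.15 and 0.07 at the start site.

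Hspa1a and Hspa1b encode the inducible HSP70 and lie side by side on chromosome 17. The largest gain there, 0.557 kb past the end of Hspa1b at chr17:34955421-34956324, held 5.08, 0.889 and 11.6 CPM in the WT and 21.7, 21.9 and 33.8 CPM in the KO libraries of LT-HSC. Its values in MPP were 15, 4.28 and 17.9 CPM for WT and 38.1, 39.9 and 44 CPM for KO. The WT libraries differed from each other more than the KO libraries did, and WT number 2 was again lowest. Its log2 ratios were 2.14 and 1.71. The matching region past the end of Hspa1a had 1.84 and 1.35. The start region of Hspa1a at chr17:34972006-34972447 was itself a member, just over the threshold at 0.50 and 0.55, with 29.9, 26.4 and 33.3 CPM in the WT and 42.2, 41.5 and 43.4 CPM in the KO libraries of LT-HSC. The start region of Hspa1b reached 0.46 and 0.63 and was not a member.

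Hsp90aa1 encodes the inducible HSP90 and Hspa8 the constitutive HSP70 of the cytosol. The gene table gives no strand for either, so their members are placed only by gene end. The 4 members of Hsp90aa1 lay in a row beyond its end with the lower coordinate. The farthest, at chr12:110686740-110687419, held 3.0, 1.55 and 4.35 CPM in the WT and 8.84, 11.2 and 16.5 CPM in the KO libraries of LT-HSC. In the MPP libraries the region gave 5.93, 2.82 and 5.89 CPM for WT and 11.6, 9.61 and 9.42 CPM for KO. Groups did not overlap, and the log2 ratios were 2.04 and 1.06, the highest of the 4 in each population. The region inside the gene at its opposite end had log2 ratios of 0.02 and 0.08. At Hspa8 3 members followed the end with the higher coordinate. Their log2 ratios, in order of distance from that end, were 0.78, 0.99 and 1.33 in LT-HSC and 0.77, 0.93 and 0.92 in MPP. The region beside its other end had 0.15 and 0.00.

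The remaining chaperone members were single regions. At Hspd1, the mitochondrial HSP60 gene, a gene body region had log2 ratios of 1.27 and 0.90. At Dnaja1, an HSP40 gene, a weak region near the end of the gene had 1.18 and 1.57, and at Hspa4l, an HSP110 gene, a region centred 1.93 kb past the start had 0.71 and 0.69.

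**Figure D2:**
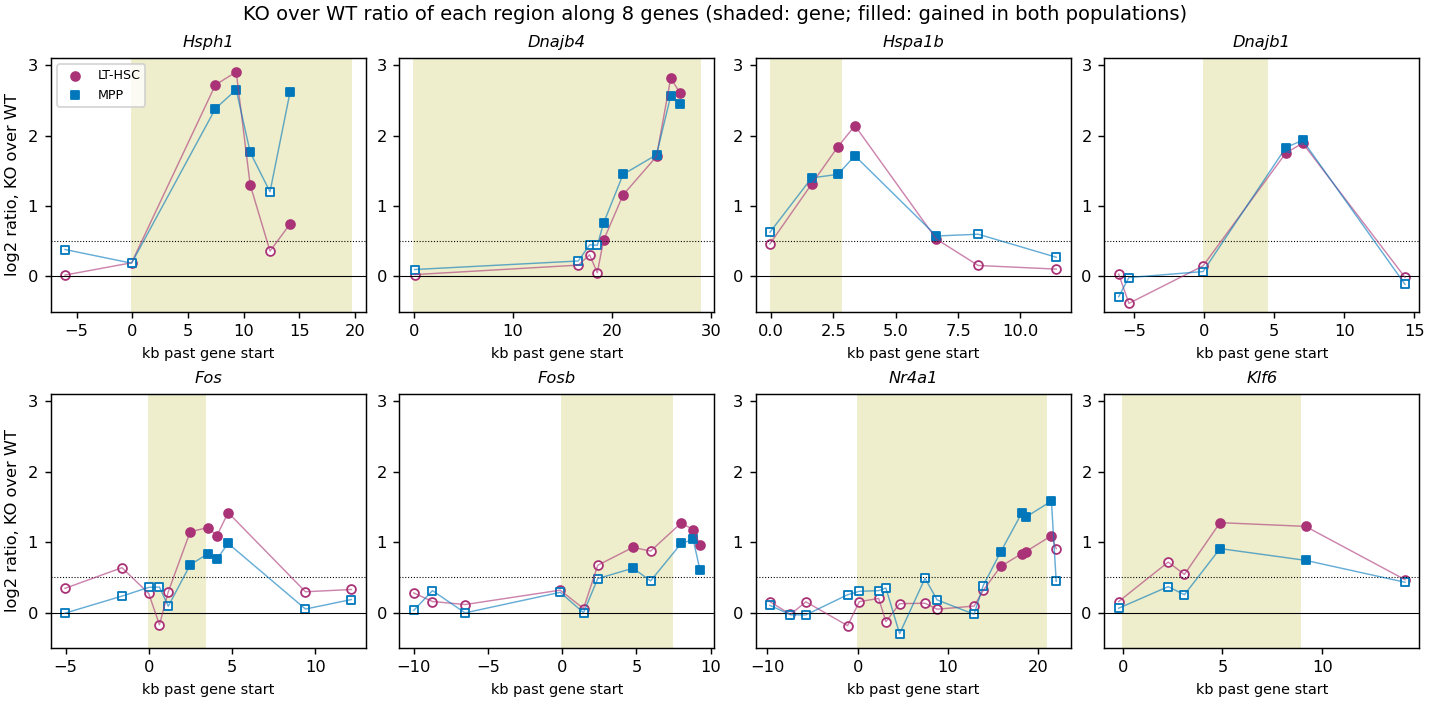
Log2 ratio of KO over WT (y axis) of each eligible region against its distance past the gene start in kb (x axis) for 4 chaperone and 4 immediate early genes, with LT-HSC as circles, MPP as squares, members filled and the gene shaded. Regions over the starts have ratios of 0.03 to 0.63, while the members shown lie in the gene body or past its end, with ratios up to 2.90 at Hsph1.

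Placement along the gene was counted over the whole list. Among chaperone genes with a known strand, 1 of 19 regions in the start window (within 250 bases before to 50 after the start) was a member, against 15 of 27 in the rest of the gene body and 5 of 13 within 5 kb past the end, while none of 3 regions within 5 kb before the start was one. Median log2 ratios in these zones, with LT-HSC first, were 0.13 and 0.09 for the start window, 0.71 and 0.90 for the body and 0.37 and 0.26 past the end. Ratios in LT-HSC went down to -0.43 in the body and -0.23 past the end, where 12 and 8 regions were not members. Over all genes with a known strand the members were 0.110% of start window regions and 0.784% of regions within 5 kb before the start. They were 0.574% of body regions and 0.574% of regions past the end. Beside these shares, none of 3 regions before the start is no result about that zone. The members of this list were chosen on these ratios, so the zone values describe them.

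Immediate early genes held the second group. Of 312 eligible regions at 24 such genes, 21 (6.73%) were members, beside 0.449% of all eligible regions. None met the loss criteria, beside 1.05% of all eligible regions. They lay at 8 genes, Atf3, Dusp1, Egr1, Fos, Fosb, Jun, Klf6 and Nr4a1. The median log2 ratio over the 312 regions was 0.13 in each population, beside -0.02 in each over all eligible regions. The largest ratios were lower than those of the chaperones. This list too was drawn up with these gains already known, so its count is not independent evidence of a direction.

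Fosb, which encodes an AP-1 subunit, had 4 members, 1 in the gene body and 3 past its end. The strongest, in the body at chr7:19304817-19305885, held 32.1, 11.5 and 54.7 CPM in the WT and 56.8, 61.9 and 68.1 CPM in the KO libraries of LT-HSC. The MPP libraries gave 39.1, 11.2 and 30.4 CPM for WT and 42.2, 40.8 and 41.9 CPM for KO. The gap between genotypes in LT-HSC was narrow, from 54.7 CPM in WT number 3 to 56.8 CPM in KO number 1, and so was that in MPP, from 39.1 to 40.8 CPM. The member at chr7:19301062-19301536, past the end, had log2 ratios of 1.18 and 1.04, and the start region had 0.32 and 0.29.

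Fos, the best known AP-1 gene, had 4 members between 2.49 and 4.76 kb past its start, from the last part of the gene into the sequence after it. The farthest, at chr12:85478288-85479018, held 8.08, 4.39 and 11.4 CPM in the WT and 17.2, 21 and 25.5 CPM in the KO libraries of LT-HSC. Its values in MPP were 10.9, 4.55 and 7.42 CPM for WT and 15.2, 14.9 and 15 CPM for KO. The KO MPP libraries were nearly equal while the WT MPP libraries spread widely. Log2 ratios were 1.42 and 0.98 there, and 0.27 and 0.36 at the start region, which was not a member.

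Jun, the AP-1 partner gene, had 1 member near its end at chr4:95049096-95049568, with 28.6, 14.8 and 41.4 CPM in the WT and 48.3, 49.8 and 56.7 CPM in the KO libraries of LT-HSC and log2 ratios of 0.87 and 0.69. The start region of Jun had 0.01 in both populations. At Klf6, a zinc finger factor gene, the body region at chr13:5866167-5866568 held 3.7, 1.03 and 6.69 CPM in the WT and 7.84, 8.96 and 10.9 CPM in the KO libraries of LT-HSC, with log2 ratios of 1.28 and 0.91. The 4 members at Nr4a1, an orphan nuclear receptor gene, had larger ratios in MPP (0.86 to 1.58) than in LT-HSC (0.66 to 1.09), at levels of at most 1.03 CPM in WT MPP. At Egr1, a zinc finger factor gene of the same class, the member had 0.72 and 1.62. At Dusp1, a phosphatase gene that limits MAP kinase signalling, both members lay at or past the end of the gene, with log2 ratios of 0.86 and 0.75 in LT-HSC, and the 1 member at Atf3 had 0.95 and 0.57.

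Zones were counted here in the same way. At immediate early genes with a known strand, 0 of 18 start window regions and 0 of 17 within 5 kb before the start were members. Members were 11 of 61 regions (18.0%) in the rest of the body and 7 of 19 (36.8%) within 5 kb past the end. Over all genes with a known strand the shares were 0.110% in the start window and 0.784% before the start. They were 0.574% in the body and 0.574% past the end. Beside these shares the counts of 0 are no result about their zones. Median log2 ratios were 0.10 and 0.08 in the start window, 0.27 and 0.30 in the body and 0.75 and 0.44 past the end, with the LT-HSC value first. The share past the end was thus above that in the body, the opposite order to the chaperones (55.6% in the body and 38.5% past the end), and neither order was tested.

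**Figure D3:**
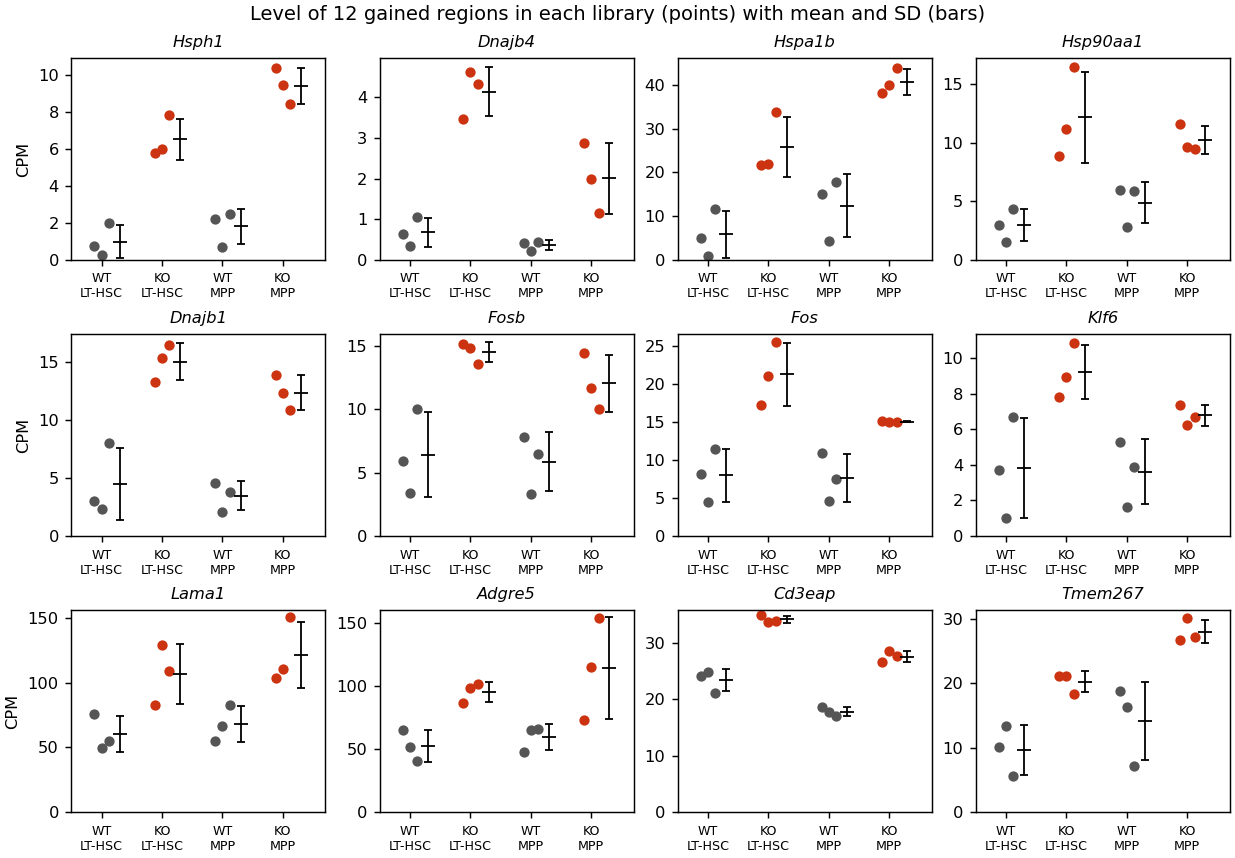
CPM (y axis) of 12 members in each library, WT in grey and KO in red with points in replicate order from left to right, and the mean and SD beside each group (n = 3). WT number 2, the middle grey point, is the lowest WT library of both populations in the 8 chaperone and immediate early panels, and WT number 3 is the highest in LT-HSC there, while Lama1, Adgre5, Cd3eap and Tmem267 show other orders.

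Single WT libraries weighed on both groups. Summed over the 28 chaperone members, WT LT-HSC libraries 1, 2 and 3 held 145, 98.4 and 236 CPM and the KO LT-HSC libraries 318, 352 and 445 CPM. In MPP the sums were 250.02, 140 and 282 CPM in WT and 482, 467 and 505 CPM in KO. Summed over the 21 immediate early members, the LT-HSC libraries held 212, 106 and 309 CPM in WT and 386, 403 and 451 CPM in KO. In MPP they held 194, 84.1 and 160.0 CPM in WT and 277, 246 and 240 CPM in KO. WT number 2 was the lowest WT library at 23 of 28 chaperone members in LT-HSC and 26 of 28 in MPP, and at 19 and 13 of the 21 immediate early members. The median over chaperone members of the highest over the lowest WT library was 2.88-fold in LT-HSC and 2.17-fold in MPP, against 1.42-fold and 1.27-fold among KO libraries. For the 514 other members it was 1.30-fold in each population for WT and 1.24-fold and 1.26-fold for KO.

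Leaving out WT LT-HSC number 3 alone raised the LT-HSC ratio of 12 named members by over 1.5 times. In log2 terms the Hsph1 body region then had 3.72, the 2 Dnajb1 members 2.57 and 2.48, the Hspa1b regions 3.11 and 1.91, the Hspa1a regions 2.86 and 2.19, the Hsp90aa1 regions 2.24 and 1.92, the Fosb regions 2.22 and 1.51 and the Klf6 body region 1.96. No other library moved a named ratio that far. Without WT number 2 in both populations, the median log2 ratio of the 28 chaperone members was 1.04 in LT-HSC and 1.03 in MPP, against 1.32 and 1.40 with all libraries, and 26 of 28 still met the rule. The 21 immediate early members then had medians of 0.81 and 0.64, against 0.95 and 0.84, and 13 of 21 still met the rule. Without WT number 3 the chaperone medians were 1.97 and 1.71, and those of the immediate early members 1.25 and 0.88. The 514 other members had medians of 0.62 and 0.64 with all libraries and 0.60 and 0.64 without WT number 2. Of these 514, 352 still met the rule without WT number 2, 389 without WT number 3 and 343 without KO number 3. The sources used here do not say how the mice or cells of each library were handled, and the part of handling in these gains was not tested.

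Other listed pathways held few members. Of 259 regions at TNF and NF-kB genes 3 (1.16%, beside 0.449% of all eligible regions) were members, 2 at Nfkbiz, which encodes an inducible nuclear IkB protein, and 1 at Tnfaip3, which encodes a ubiquitin-editing inhibitor of NF-kB. The stronger Nfkbiz member, at chr16:55810098-55810611, held 1.32, 1.64 and 2.61 CPM in the WT and 3.43, 5.28 and 3.0 CPM in the KO libraries of LT-HSC, with log2 ratios of 1.07 and 1.12, and the Tnfaip3 member had 0.53 and 0.58. No member was found among 114 regions at interferon response genes, 211 at cell cycle genes or 42 at the Hoxa cluster. Likewise none of 154 regions at myeloid, 109 at megakaryocyte and erythroid, 121 at T cell, 63 at B cell and 55 at NK cell genes was a member. Beside a background of 0.449%, counts of 0 in lists of these sizes are no result about the lists.

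Of 678 regions at stem cell identity genes 6 (0.885%, beside the background of 0.449%) were members, a count too small to read as a result about the list. They lay at Angpt1, Egr1, Ly6a, Mecom, Meis1 and Runx1. The Mecom member, inside this transcription factor gene at chr3:30066442-30066933, held 5.38, 6.17 and 5.4 CPM in the WT and 9.11, 10.5 and 10.3 CPM in the KO libraries of LT-HSC. In the MPP libraries the region gave 1.83, 2.14 and 2.11 CPM for WT and 2.88, 3.63 and 2.77 CPM for KO. KO and WT libraries were each closely grouped, with log2 ratios of 0.82 and 0.61. The Runx1 member, within the gene of another stem cell transcription factor, had 0.72 and 0.51. Ratios at Meis1, a homeobox gene of stem cells, were 0.70 and 0.53. Angpt1, which encodes a ligand of the Tie2 receptor, had 0.70 and 0.50, and Ly6a, the Sca-1 gene, 0.76 and 0.70. Of 191 regions at genes linked to HSC aging 6 (3.14%) were members, 4 at Klf6, 1 at Jun and 1 near Plscr2, so this list shares most of its members with the immediate early list.

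One member each came from 5 further lists. A region assigned to Cd34, a progenitor surface protein gene, had log2 ratios of 0.58 and 0.58. Regions at Pecam1, an adhesion receptor gene, and Pes1, a ribosome assembly gene, had 0.57 and 0.53, and 0.67 and 0.56. The Fbxw7 member, in the gene of a ubiquitin ligase subunit that targets Notch, had 0.57 and 0.65. A member in Asxl1, which encodes a Polycomb-associated protein mutated in myeloid leukaemias, had 0.60 and 0.61. These ratios lie in the lower part of the range.

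The other 500 members belonged to no list. Their median smaller log2 ratio was 0.57 and the highest was 1.37, at Zfp945, a zinc finger protein gene. That region, at chr17:22877466-22878164, before the start of the gene, held 1.09, 1.06 and 1.08 CPM in the WT and 3.43, 2.55 and 2.34 CPM in the KO libraries of LT-HSC. The MPP libraries gave 0.776, 0.659 and 0.728 CPM for WT and 1.48, 2.41 and 2.34 CPM for KO. The WT libraries lay close together in each population, unlike those at the chaperones, and the log2 ratios were 1.37 and 1.53.

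Several of the members with the highest mean CPM lay outside the chaperone and immediate early lists. The region in Lama1, a laminin subunit gene, at chr17:67741198-67741605, held 76.1, 49.8 and 55 CPM in the WT and 82.7, 129 and 109 CPM in the KO libraries of LT-HSC. Its values in MPP were 55, 66.6 and 82.6 CPM for WT and 104, 110.4 and 151 CPM for KO. The WT and KO ranges came close in LT-HSC, and no single WT number was lowest in both populations. The region near Adgre5, an adhesion receptor gene, at chr8:83756711-83757130, held 52.5 ± 12.7 CPM on average in WT against 95.7 ± 8.14 CPM in KO LT-HSC (SD, n = 3), with log2 ratios of 0.86 and 0.94. The region at Naa38, which encodes a subunit of an N-terminal acetyltransferase, held 32.8 ± 3.67 CPM on average in WT against 47.2 ± 1.65 CPM in KO LT-HSC, with 0.52 and 0.66. A region over the start of Cd3eap, an RNA polymerase I subunit gene, held 23.4 ± 2.01 CPM on average in WT against 34.1 ± 0.643 CPM in KO LT-HSC, with 0.55 and 0.63. Spread within groups was small at these last regions.

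Further members were picked after their values were seen. Zfand2a, a stress-induced gene for a proteasome-associated protein, had 2 members, and the one in the gene body had log2 ratios of 0.78 and 1.52. At Tmem267 the member covered the start site and held 10.1, 13.4 and 5.64 CPM in the WT and 21.2, 21.2 and 18.3 CPM in the KO libraries of LT-HSC, with 1.06 and 0.99; there WT number 3 and not WT number 2 was the lowest. Within the long noncoding RNA gene Neat1, 3 members lay in a row, assigned by distance to the protein-coding gene Frmd8, with log2 ratios of 0.58 to 0.66 in LT-HSC and 0.52 to 0.76 in MPP. At Mcl1, an anti-apoptotic gene, and H3f3b, a histone H3.3 gene, a member lay past the end of the gene, with 0.60 and 0.80, and 0.86 and 0.58. In Per1, a clock gene, the body member had 1.03 and 1.45.

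Position against genes did not enter the rule. Off chromosome 18, for which no start sites were used here, 12 of 544 members (2.21%) overlapped a start window, against 9.01% of eligible regions and 2.81% of regions lost in both populations. The 12 were assigned to Arid5b, Atp6v0a1, Casp4, Cd3eap, Cnpy4, Herc3, Hspa1a, Pgap4, Slfn14, Sox6, Srpk2 and Tmem267, and the highest log2 ratios among them were those at Tmem267. A further 56 members (10.3%) lay within 1 kb of a start without touching the window, against 4.26% and 1.87%. Gene bodies held 62.7% of members, 60.6% of eligible regions and 50.6% of lost regions. Within 5 kb before a start lay 6.80% of members, 4.03% of eligible regions and 2.73% of lost regions, and within 5 kb past an end 4.78%, 3.82% and 2.73%. Of members 23.3% were over 600 bp, against 17.5% of eligible and 11.7% of lost regions, and their median mean level was 2.60 CPM against 3.25 and 1.72 CPM. Regions that met the gain criteria in a single population, members included, overlapped a start window in 1.65% of cases in LT-HSC and 2.05% in MPP, lay beside it in 6.71% and 7.24%, and were over 600 bp in 17.7% and 22.1%. These are shares of regions, several of which share a gene, and no test was attached.

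**Figure D4:**
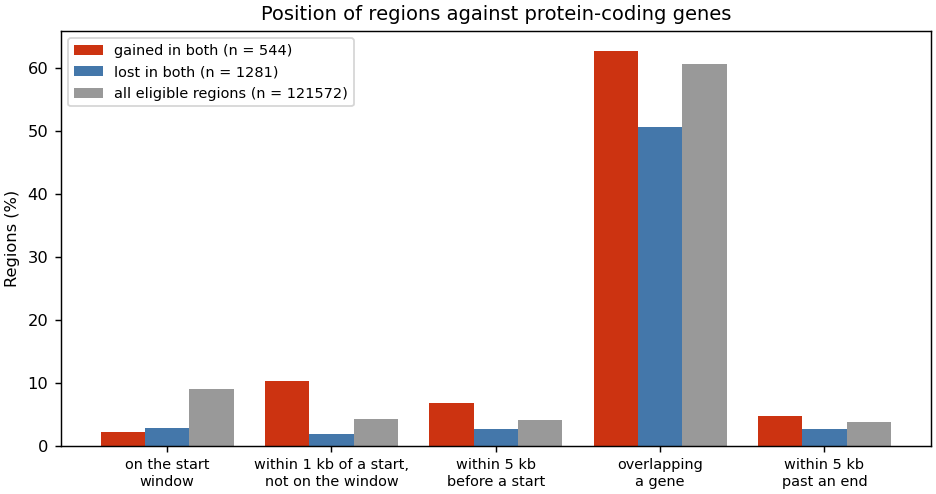
Share of regions in percent (y axis) in 5 positions against protein-coding genes (x axis) for members in red, regions lost in both populations in blue and all eligible regions in grey, off chromosome 18; a region can fall in more than 1 position. Members reach 2.21% on the start window against 9.01% of eligible regions, and 10.3% beside it against 4.26%.

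Some members lay close to each other. Of 563 members, 78 (13.9%) lay within 10 kb of another member, against 84 of 1316 lost regions (6.38%), 271 of the regions gained in LT-HSC (12.02%) and 740 of those gained in MPP (18.3%), each counted within its own set. The member share thus lies between those of the gains in each population, and a share of this kind also depends on the size of the set. The 531 members with a gene within 100 kb fell on 466 genes, of which 43 had 2 or more members and 8 had 4 or more. Those 8 were Dnajb4, Fos, Fosb, Hsp90aa1, Hspa1b, Hsph1, Klf6 and Nr4a1, all of them from the chaperone or immediate early lists. Eligible regions within 5 kb of a member that were not members themselves numbered 545, with median log2 ratios of 0.07 in LT-HSC and 0.12 in MPP, and 53.4% of them were above 0 in both populations against 31.2% of all eligible regions that were not members. By chromosome, members were between 0.236% of eligible regions (chromosome 7) and 0.664% (chromosome 12).

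The difference between MPP and LT-HSC, averaged over WT and KO, was not used by the rule and was tested. The rule can favour regions with a small spread within groups, and the test uses that spread. Adjusted p-values of members may therefore be too small. In the edgeR quasi-likelihood fit over 186373 regions, 149 members (26.5%) were higher in MPP and 303 (53.8%) lower at an adjusted p under 0.05, and 111 did not pass. Members passed a filter on the mean over both populations, so those that reached 1 CPM in a single population had to differ between the populations, and their calls support nothing. There were 98 that reached it in LT-HSC alone, of which 96 were lower in MPP, and 36 in MPP alone, of which 34 were higher. Of the 429 members that reached it in each population, 115 (26.8%) were higher and 207 (48.3%) lower, against 35.9% and 39.9% of eligible regions that did so. That last count was chosen after seeing the data. Among all regions tested 38.8% were higher and 39.1% lower, and among eligible regions 38.3% and 41.7%. The median log2 fold change of MPP over LT-HSC was -0.35 over members and -0.03 over eligible regions. Of the members called, 60 that were higher and 149 that were lower had all 6 libraries of one population above all 6 of the other. These counts include members that reached 1 CPM in a single population. The share of eligible regions separated in this way was not counted, so both counts are a description. With LT-HSC and MPP of the same genotype and number paired as a block, 157 members were higher and 311 lower. Of all 186373 regions tested, 73493 were then higher and 73860 lower. The block counts of members also include those that reached 1 CPM in a single population.

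**Figure D5:**
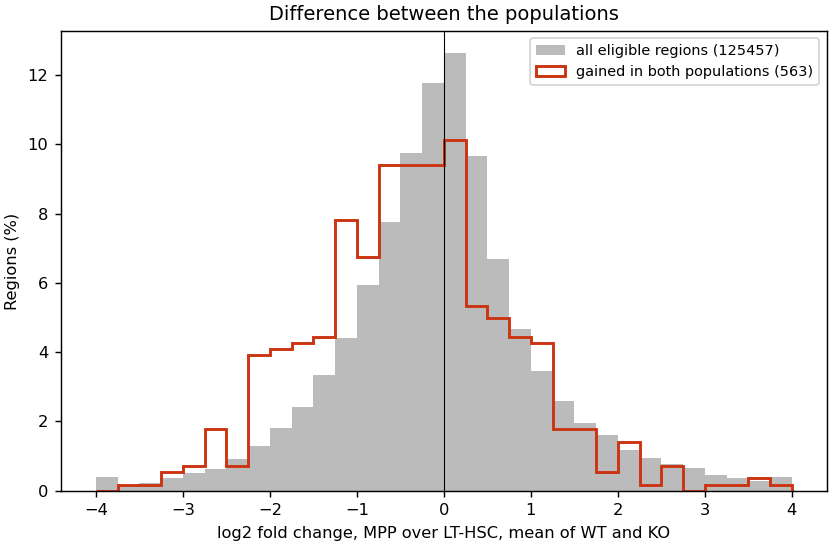
Share of regions in percent (y axis) by log2 fold change of MPP over LT-HSC, averaged over WT and KO (x axis), for the 563 members as a red line and all 125457 eligible regions as grey bars, with values beyond 4 placed in the end bins. The red line lies above the grey bars at most negative values, where 303 members were lower in MPP.

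Among members with an assigned gene, the log2 fold changes of MPP over LT-HSC furthest below 0 were at Xcl1, a distant chemokine gene (-3.68 ± 0.183, SE), and in Spidr, a DNA repair scaffold gene (-3.36 ± 0.209), and Plcb1, a phospholipase gene (-2.91 ± 0.213). Of the members with no gene within 100 kb, 4 lay between those of Spidr and Plcb1. All of these reached 1 CPM in LT-HSC alone, so the values are a description with no test. The Xcl1 region held 2.59, 2.21 and 2.13 CPM in the WT and 3.54, 3.67 and 3.31 CPM in the KO libraries of LT-HSC. The MPP libraries gave 0.0751, 0.103 and 0.208 CPM for WT and 0.265, 0.511 and 0.346 CPM for KO. Every MPP library of either genotype lay below every LT-HSC library. Among members at stem cell genes, those at Mecom and Egr1 fell, with -1.55 ± 0.09, adjusted p = 1.75e-16 at Mecom in the edgeR fit and -2.15 ± 0.13, adjusted p = 4.81e-16 at Egr1. The member near Cd34, a gene of the MPP and lymphoid list, reached 1 CPM in LT-HSC alone and had -2.15 ± 0.143. The 20 eligible Cd34 regions together went the other way, with sums of 116 to 125 CPM in LT-HSC and 161 to 168 CPM in MPP.

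In the other direction, the log2 fold changes furthest above 0 were at Pde6d, a prenyl-binding protein gene (3.76 ± 0.20, SE), Plekhm1, which encodes a protein of lysosome fusion (3.68 ± 0.176), Hgf, the gene of a ligand of the Met receptor (3.56 ± 0.161), and Zeb2, a transcription factor gene (3.48 ± 0.151). These reached 1 CPM in MPP alone and are likewise a description. The Zeb2 region held 0.235, 0.229 and 0.27 CPM in the WT and 0.432, 0.42 and 0.353 CPM in the KO libraries of LT-HSC. Its values in MPP were 2.5, 3.15 and 2.84 CPM for WT and 4.17, 4.33 and 4.47 CPM for KO. Its WT libraries in MPP lay above every LT-HSC library of either genotype. At Runx1 the member rose in MPP (1.24 ± 0.10, adjusted p = 9.85e-13, edgeR).

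Of 28 chaperone members 11 were higher and 7 lower in MPP, and of 21 immediate early members 1 was higher and 11 lower. Among all eligible regions 38.3% were higher and 41.7% lower. Both lists hold members that reached 1 CPM in LT-HSC alone, so these counts are no result about the lists. Members at Hspa1a and Hspa1b were higher in MPP, as in the body of Hspa1a (1.16 ± 0.20, adjusted p = 6.07e-06, edgeR). Past the end of Hspa1b the edgeR value was 0.88 ± 0.24, adjusted p = 0.00147, and DESeq2 gave an adjusted p of 0.122 (2.90e-17 to 0.122 over 17 alternatives). At Dnajb4 1 of the 5 members reached 1 CPM in LT-HSC alone, so its value of -1.0 is a description with no test. The other members of Dnajb4 had values of -0.98 to -0.76 (adjusted p from 4.76e-07 to 0.000318, edgeR). At Jun the member was lower (-0.64 ± 0.14, adjusted p = 0.000169, edgeR). At Hsp90aa1 the farthest member did not pass (0.25 ± 0.16, adjusted p = 0.151, edgeR), and with the block it did (0.28, adjusted p = 0.00627; 0.00627 to 0.569 over 17 alternatives). These values rest on WT and KO libraries that differ in level, and a difference between the lists was not tested.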

How the data were processed

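ATAC-seq counts of 12 libraries (3 each of WT LT-HSC, KO LT-HSC, WT MPP and KO MPP, grouped by the labels) were analysed. The authors deposited raw counts of reads per region for a common set of regions, without normalization. Tools named in the submitters' processing notes are MACS2 2.1.1, DESeq2 1.22.1, cutadapt, Bowtie2 and featureCounts, with the build GRCm38. Their order, settings and filters and the making of the common set were not given in the sources used here. Replicates are taken as separate mice on the labels' wording alone, so p-values measure the spread between these libraries.

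CPM were counts divided by the column total. Each region was assigned to the protein-coding gene it overlapped, or the nearest within 100 kb, which does not show that it acts on that gene. Strand and start sites came from RefSeq promoter windows (GRCm38.p6), known for 17492 of 21900 protein-coding genes, and were not used on chromosome 18. MPP over LT-HSC, averaged over genotypes, was tested with edgeR 4.0.16 in R 4.3.3 (quasi-likelihood F test, 2-sided, TMM, filterByExpr, 12 libraries in 4 group means), with Benjamini-Hochberg adjustment over 186373 regions. The biological coefficient of variation was 8.17%. The fit was checked on simulated counts.

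The members, lists and tests were chosen with earlier results of these data known. Named members were the 12 with the largest smaller ratio, the 8 with the highest mean CPM, up to 3 per list by mean CPM, those of the 5 genes with most members, the 5 largest population differences in each direction and the 3 nearest the threshold, and the other members named were chosen after their values were seen. Same-numbered LT-HSC and MPP libraries of a genotype correlated in their deviations from group means (r from 0.111 to 0.219, all 6 pairs above 0.1), and every other pairing was negative. Deviations from a mean of 3 libraries cancel within a group, so the negative values largely follow from the positive ones and add no support. The positive values alone were the reason to pair the libraries by number across populations in the block. The main edgeR test left this pairing out. Alternatives were TMM and DESeq2 1.42.0 size factors, other thresholds and levels, DESeq2, the block, and each library left out. CPM of weak regions carry counting error as well, and PCR reads without molecular identifiers are not independent molecules. A few members are not reported here.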

Additional observations from a re-analysis of the deposited data

How the results depend on the processing

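The number of members depended on its settings. It was 942 with TMM library sizes and 971 with DESeq2 size factors, and both held all 563. It was 1268 at a log2 ratio of 0.4, 247 at 0.6, 26 at 1, and 358 at a mean of 2 CPM. Leaving out 1 library gave 549 to 767. Leaving out the same number in both populations, chosen after seeing the data, gave 845, 612 and 1057 without WT number 1, 2 or 3 and 1095, 544 and 602 without KO number 1, 2 or 3, with fewer libraries to be separated. The share of members near a start was 4.96% within 500 bp and 16.9% within 2 kb, against 12.5% within 1 kb. Of eligible regions 13.3% lay within 1 kb, and their shares at the other distances were not counted. All 854 alternative values of the log2 ratios of named members kept their direction. The rule set every KO library above every WT library, so leaving out 1 library could not reverse a ratio. Nor could leaving out 1 of 3 libraries readily move a ratio by more than the spread between replicates, so these values are no check of the ratios. Of them 12, all without WT LT-HSC number 3, moved up by over 1.5 times.

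For MPP over LT-HSC, leaving out 1 library gave 138 to 152 members higher and 293 to 308 lower, and DESeq2 gave 134 and 288. Over all regions tested, leaving out 1 library gave 70396 to 72823 higher and 70744 to 72183 lower. DESeq2 gave 69806 and 69442 over all regions, and the block below 73493 and 73860. The counts of members include those that reached 1 CPM in a single population, so they are a description. With the replicate block of genotype and number the counts were 157 and 311, and 10 of the 61 named members passed that had not passed without it. Over 1037 alternative values of named members, 973 kept their side of the threshold, 18 lost the call, 46 gained it and none reversed. No paired analysis of KO against WT was possible because no number links mice of different genotype and no test was made there. Reads outside the regions and PCR duplicates were not analysed here, so no signal to background value is given. Members near 1 CPM rest on few counts per library.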

Other observations

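Of the members with a log2 ratio of at least 1 in both populations that lay outside the chaperone and immediate early lists, 3 more are given here, picked after their values were seen. At Ctla2a, a gene for a cysteine protease inhibitor, the region at chr13:60933798-60934733 held 6.14, 3.27 and 5.79 CPM in the WT and 12.3, 14 and 14.7 CPM in the KO libraries of LT-HSC, with 1.43 and 1.14, and lay close to the end of the gene. The region at chr4:40735278-40736084 overlaps Smu1, a splicing factor gene, and is the next one after the Dnaja1 member; it held 0.793, 1.03 and 0.60 CPM in the WT and 1.68, 2.1 and 1.24 CPM in the KO libraries of LT-HSC, with 1.05 and 1.58. Here WT number 2 was the highest WT library in both populations. A region inside Ssh2, a cofilin phosphatase gene, held 0.823, 0.344 and 0.929 CPM in the WT and 1.13, 1.47 and 2.21 CPM in the KO libraries of LT-HSC, with 1.2 and 1.0.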
